A study of Mus musculus with 2 samples.

Results

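The transcription factors that set microglial identity were followed as 9 genes chosen by symbol, namely Sall1, Mef2a, Mef2c, Spi1, Irf8, Runx1, Maf, Klf2 and Klf4. All 9 were found among the 31053 genes of the files. Their RNA was counted in single retinal cells from wild-type C57BL/6 mice at postnatal day 17. The OIR library was made from mice with oxygen-induced retinopathy, whose pups were kept in 75% oxygen with their nursing mother from day 7 to day 12 and then returned to room air. The control library was made from mice of the same strain, genotype and age labelled as controls. The labels give both libraries the same treatment text and do not state whether the control mice stayed in room air. Each library pooled the retinas of 6 mice, which were dissociated with papain and enriched with CD11b magnetic beads. The model thus has 1 pooled library a group, so no difference between OIR and control has a replicate check, no test was made, and a difference between libraries cannot be told apart from one between conditions. All intervals are 95% intervals and cover counting error only.

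Microglia are the resident macrophages of the retina and brain, and their identity is held by a small set of DNA-binding proteins that act together at enhancers. Spi1 encodes PU.1, the ETS-family factor that opens macrophage enhancers, and Irf8 encodes an interferon regulatory factor that binds beside PU.1. Runx1 is a runt-domain factor of blood and early microglial development. Mef2a and Mef2c encode MADS-box factors whose motif is common at microglial enhancers. Sall1 encodes a zinc-finger factor that marks microglia among tissue macrophages of the mouse. Maf encodes c-Maf, a leucine-zipper factor of resident macrophages. Klf2 and Klf4 encode Krüppel-like zinc-finger factors, and Klf2 is known to restrain inflammatory genes in myeloid cells. In endothelial cells MEF2 factors are known to switch on Klf2.

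The OIR library held 6132 filtered cells with a median of 2828.5 UMIs (each UMI tags 1 captured RNA molecule), and the control library 8585 cells with a median of 1648. Although the labels call the cells retinal microglia, cells with rod markers made up 46.5% of OIR and 76.4% of control cells. Microglia-like cells numbered 611 in OIR and 824 in control, named from 12 marker genes that include Tmem119 and P2ry12 and none of the 9 factors. The 9 factors and their relatives were also kept out of the genes used for clustering. None of the 89 barcodes that occur in both libraries was shared by their microglia-like cells. Levels are given in CPM, the usual depth-scaled unit, as the UMIs of a gene relative to all UMIs of the same cell group in the same library.

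The microglia-like cells fell into 4 parts. Tmem119-high cells (102 OIR, 651 control) were those in which microglia markers exceeded the other myeloid cells. A cluster led by Hmox1, Spp1 and Mmp12, genes of haem breakdown and of activated macrophages, held 224 OIR and 12 control cells. A cluster led by Rgs10 and Ltc4s held 77 OIR and 150 control cells with median depths of 1791 and 1763.5 UMIs. A cluster led by Lgals3 and Ftl1 held 208 OIR and 11 control cells with median depths of 2520.5 and 3330 UMIs. The Hmox1-led and Lgals3-Ftl1 clusters came almost whole from the OIR library, and with 1 library a group such a cluster may be that library and not a cell state. Tmem119-high cells gave 12.9% of the microglia-like UMIs in OIR against 92.5% in control, and the Hmox1-led cluster gave 74.0% against 2.28%. Border macrophage-like cells numbered 49 in OIR and 1 in control, and monocyte-like cells 31 and 10.

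The start regions of 3 members are shown because the Klf2 and Klf4 levels set the widest ranges below and Mef2a is the other member whose start region holds the MEF2 element. The sequences are from RefSeq (build GRCm38.p6) and run 5′ to 3′ from 250 bases before to 50 bases after the start site. Capitals mark the MEF2 element.
Klf2 (chr8:72318812-72319111, plus strand): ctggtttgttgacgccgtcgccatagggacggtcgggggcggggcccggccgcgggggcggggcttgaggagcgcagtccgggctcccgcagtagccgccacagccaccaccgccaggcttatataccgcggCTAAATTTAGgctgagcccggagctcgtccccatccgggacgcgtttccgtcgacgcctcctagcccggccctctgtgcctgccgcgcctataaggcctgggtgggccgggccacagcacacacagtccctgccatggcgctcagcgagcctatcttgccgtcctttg
Mef2a (chr7:67372809-67373108, minus strand): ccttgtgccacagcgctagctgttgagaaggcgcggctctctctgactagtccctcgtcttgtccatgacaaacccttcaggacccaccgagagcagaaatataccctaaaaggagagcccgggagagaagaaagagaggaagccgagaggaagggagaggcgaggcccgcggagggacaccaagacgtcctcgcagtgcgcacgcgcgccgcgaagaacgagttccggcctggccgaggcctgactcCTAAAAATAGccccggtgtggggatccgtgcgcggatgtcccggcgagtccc
Klf4 (chr4:55532426-55532725, minus strand): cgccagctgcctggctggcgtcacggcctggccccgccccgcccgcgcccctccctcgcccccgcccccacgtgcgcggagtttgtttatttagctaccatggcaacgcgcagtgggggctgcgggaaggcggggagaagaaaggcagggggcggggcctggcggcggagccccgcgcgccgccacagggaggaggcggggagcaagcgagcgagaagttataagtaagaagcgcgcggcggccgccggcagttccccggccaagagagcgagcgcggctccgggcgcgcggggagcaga
The Klf2 element lay 118 to 109 bases before the start site, and the Mef2a element spanned the start site. Of 32851 mouse start regions of this length, 3.19% held the MEF2 element on either strand. Klf2, Klf4, 1 of the 2 Irf8 and 1 of the 3 Sall1 start regions held the Krüppel-like motif GGGCGGGG, as did 17.6% of all start regions. The serum response element of immediate early genes, present in 1.63% of start regions, was found in none of the 13 start regions of the 7 members that the RefSeq table holds, and neither were the PU.1 core GAGGAAGT (3.20% of all) or the composite element of PU.1 with an IRF (2.72%). Spi1 and Maf were not matched. These matches describe letters in a window and no binding was measured.

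The genes lie on 6 mouse chromosomes (build mm10, GENCODE) and all are protein-coding. Sall1 is at chr8:89027235-89044162, Irf8 at chr8:120736358-120756694, Maf at chr8:115682942-115707794 and Klf2 at chr8:72319033-72321656. Mef2a is at chr7:67231163-67372858 and Mef2c at chr13:83504034-83667080. Spi1 is at chr2:91082390-91115756, Runx1 at chr16:92601466-92826149 and Klf4 at chr4:55527143-55532466.

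The first comparison asks how the factors stood in OIR against control microglia-like cells. Of the 9 factors 7 were lower in OIR and none was higher, where a call needs a 1.5-fold distance and an interval that excludes no change. Over the 7754 genes with a mean of at least 10 CPM, 17.6% were lower and 10.4% higher by the same rule. The median log2 ratio of OIR over control was -0.96 over the 9 factors and -0.13 over all those genes. When ratios were taken relative to that median of all genes, 6 of the 9 factors were lower. By the same scaling 934 of the 7754 genes were lower and 1085 higher, in place of 1361 and 803. The share of higher calls among all calls was 53.7% in place of 37.1%. Mef2c was the factor that no longer passed. The Hmox1-led cluster supplied 72.1% of the Klf2 UMIs and 71.9% of the Spi1 UMIs of OIR microglia-like cells, near its 74.0% of all their UMIs. Tmem119-high cells supplied 98.4% of the Klf2 UMIs in control, beside 92.5% of all UMIs of control microglia-like cells. Most of the cells compared lay in the Hmox1-led and Lgals3-Ftl1 clusters in OIR and in the Tmem119-high state in control.

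Klf2 had the lowest ratio of the 9. It stood at 655 CPM in OIR and 2459 CPM in control (3788 and 16006 UMIs), a log2 ratio of -1.91 (-1.96 to -1.86). Its Krüppel-like relative Klf4 had 168 CPM in OIR and 347 CPM in control, a log2 ratio of -1.05 (-1.16 to -0.94). Sall1, the factor that marks microglia, had 112 CPM in OIR and 260 CPM in control, a ratio of -1.21 (-1.34 to -1.08). Maf had 151 CPM in OIR and 309 CPM in control, a ratio of -1.04 (-1.15 to -0.92). These were the 4 factors whose ratio passed 2-fold.

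The lineage factors Spi1, Irf8 and Runx1 had ratios between -0.96 and -0.27. Spi1 had 354 CPM in OIR and 428 CPM in control, a log2 ratio of -0.27 (-0.36 to -0.19), the ratio nearest to 0 among the 9, and was not called. Irf8, the partner of PU.1, had 314 CPM in OIR and 612 CPM in control, a ratio of -0.96 (-1.04 to -0.88), and was called lower. Runx1 had 196 CPM in OIR and 292 CPM in control, a ratio of -0.58 (-0.69 to -0.47), just inside 1.5-fold. The MEF2 factors were both called lower, Mef2a with 259 CPM in OIR and 445 CPM in control (-0.78, -0.87 to -0.69) and Mef2c with 451 and 689 CPM (-0.61, -0.68 to -0.54).

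**Figure D1:**
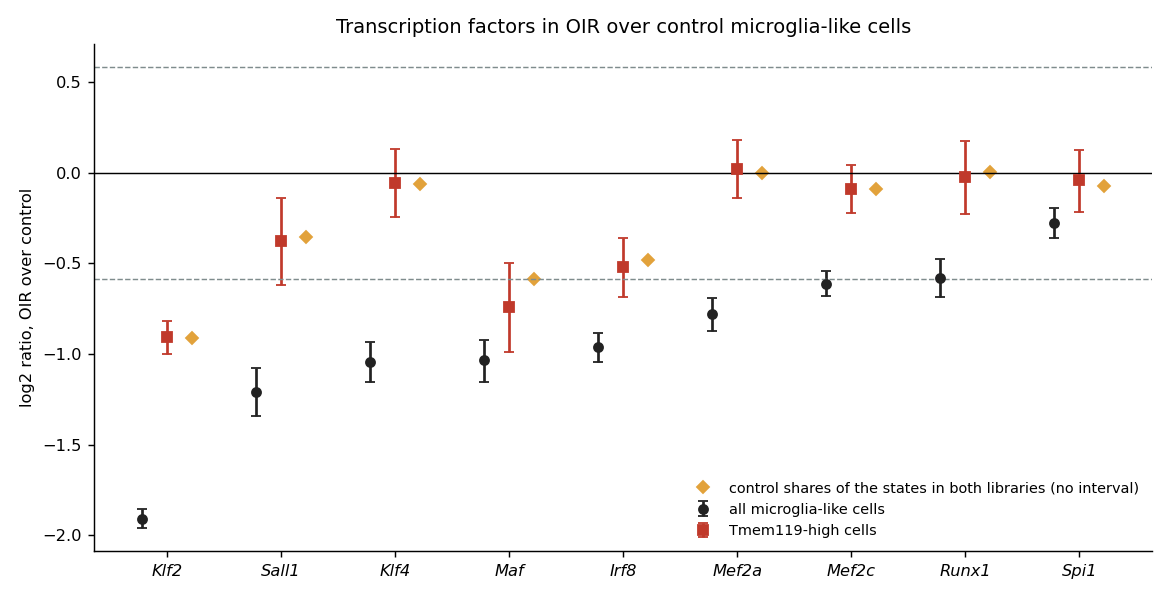
The vertical axis is the log2 ratio of OIR over control for each of the 9 factors, in all microglia-like cells (black circles), in Tmem119-high cells (red squares) and with the states given their control shares in both libraries (orange diamonds, no interval). Bars are 95% counting intervals and dashed lines mark 1.5-fold; all 9 black circles lie below 0, while in Tmem119-high cells Klf2 and Maf pass the lower line.

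Within the Tmem119-high state 2 of 9 factors were lower in OIR and none was higher, beside 4.12% lower and 7.28% higher of 7866 genes. The median of the 9 was -0.09, and that of all genes 0.02. Klf2 stood at 1397 CPM in OIR and 2617 CPM in control, a log2 ratio of -0.91 (-0.998 to -0.82), and Maf at 195 and 325 CPM, a ratio of -0.74 (-0.99 to -0.49). Klf2 was lower in OIR in each of the 3 clusters that make up the state, with 1592 against 2723 CPM, 998 against 2818 CPM and 1220 against 2191 CPM. Maf stood at 192 against 352 CPM, 218 against 328 CPM and 193 against 259 CPM in the same clusters. Their OIR cells numbered 45, 15 and 42 and held 77, 17 and 52 Maf UMIs. The group of 15 cells is below the minimum of 20 cells used elsewhere, and the last Maf pair lies within 1.5-fold. No call was made per cluster. Irf8 (449 CPM in OIR, 644 CPM in control, -0.52) and Sall1 (211 and 273 CPM, -0.37) had intervals below 0 but were within 1.5-fold.

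The remaining 5 factors had intervals that included 0 in Tmem119-high cells. Klf4 had 355 CPM in OIR and 369 CPM in control (-0.24 to 0.13), and Spi1 had 418 and 430 CPM (-0.21 to 0.13). Mef2a had 475 and 468 CPM (-0.14 to 0.18), Mef2c 680 and 722 CPM (-0.22 to 0.05) and Runx1 307 and 312 CPM (-0.22 to 0.18). Klf2 was called lower in this state and Klf4 was not, although both were called lower over all microglia-like cells. The difference between their ratios was not tested. Klf2 and Maf were again the 2 called among cells of 5000 to 15000 UMIs (71 OIR, 470 control), at -0.80 (-0.90 to -0.70) and -0.70, with the Maf interval ending at -0.42. No share of all genes is given for that range of depth. The 15 immediate early genes, which are induced within minutes by stimulation and by handling, summed to 25253 CPM in OIR and 31828 CPM in control Tmem119-high cells, and rod markers took 0.329% and 0.196% of their UMIs. Their part in the Klf2 and Maf values was not tested.

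When each state was given its share of the control cells in both libraries, 2 of the 9 factors were at least 1.5-fold lower in OIR. They were Klf2 at -0.91 and Maf at -0.59. Tmem119-high cells held 79.0% of the weight, and the Hmox1-led and Lgals3-Ftl1 clusters 1.46% and 1.33%. The ratios so weighted therefore mostly restate those of Tmem119-high cells and are no separate result. Irf8 came to -0.48 and Sall1 to -0.35. Spi1 (-0.07), Klf4 (-0.06), Mef2c (-0.09), Mef2a (-0.0013) and Runx1 (0.0052) came close to 0. In the Rgs10-Ltc4s cluster, the other part with at least 20 cells in each library, 8 factors passed the minimum level and 0 were called lower or higher, beside 0.925% lower and 3.88% higher of 6164 genes. That cluster held only 146229 OIR and 307983 control UMIs, and the Klf2 interval there ran from -4.91 to 0.39 (2 and 14 UMIs). The 12 control cells of the Hmox1-led cluster had 1604 CPM of Klf2, against 638 CPM in the 224 OIR cells, and are given as values with no call.

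**Figure D2:**
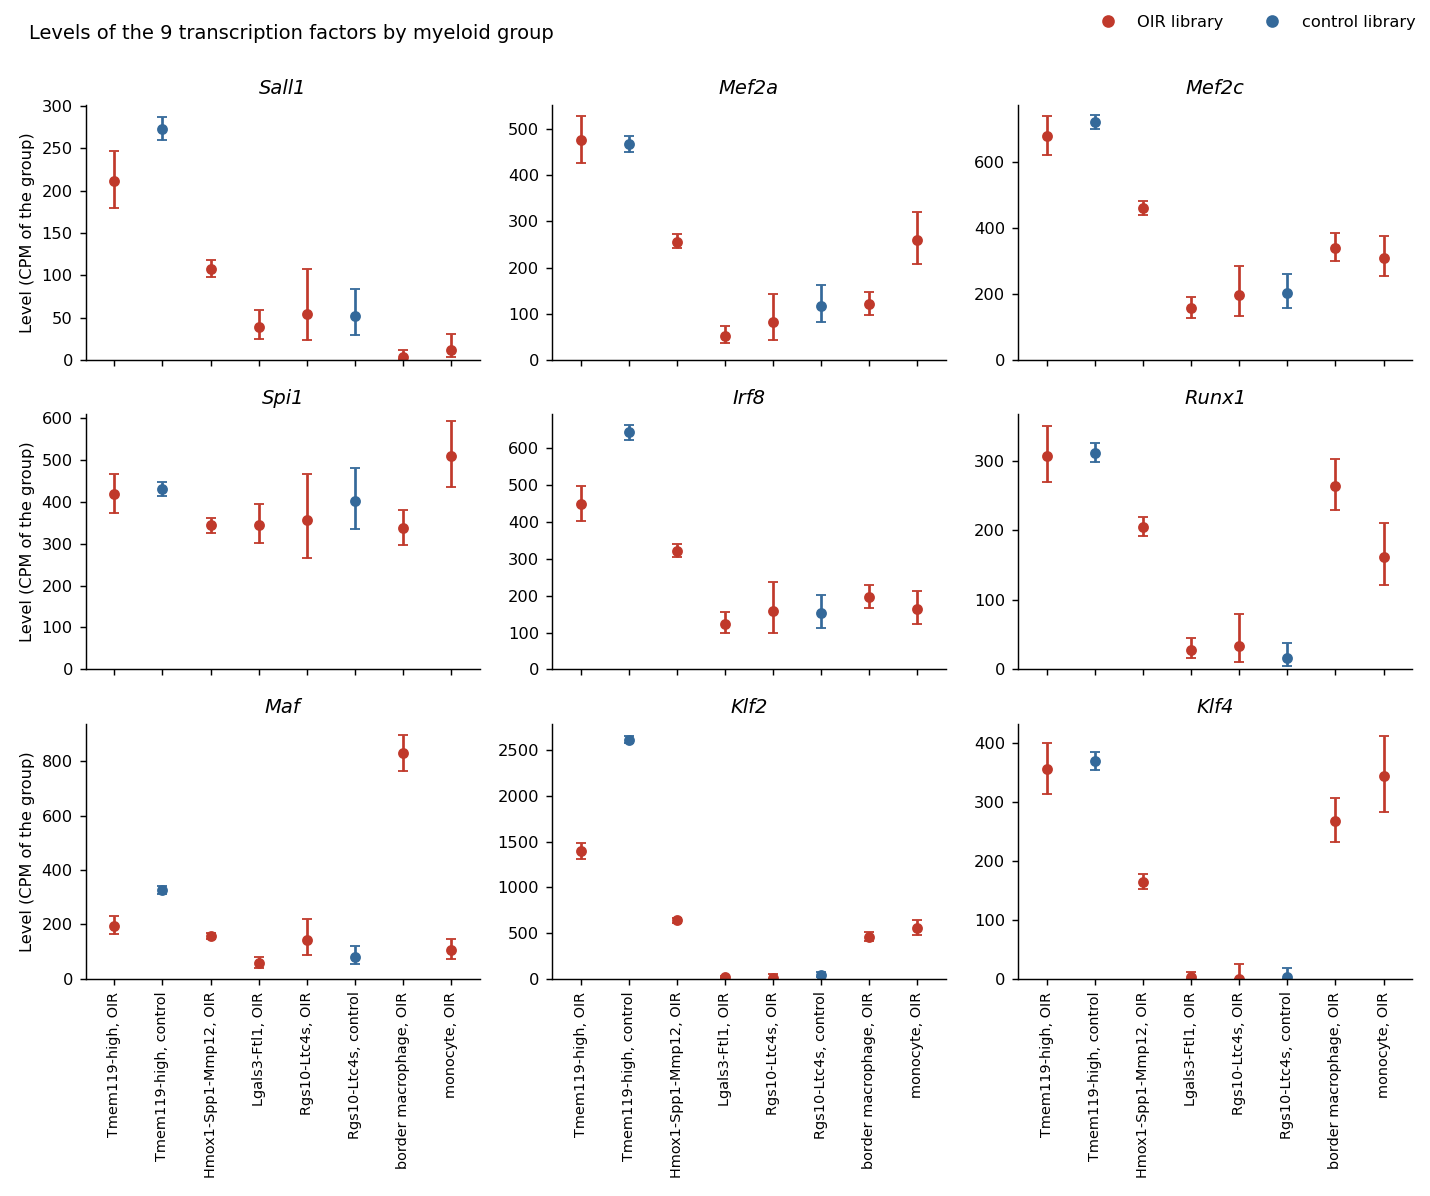
Each panel gives the level of 1 factor in CPM of the group, with 95% Poisson intervals, for the OIR (red) and control (blue) libraries; only groups of at least 20 cells are drawn, so border macrophage-like and monocyte-like cells are those of OIR. Spi1 stays between 337 and 510 CPM in the 8 groups drawn, Klf2 and Klf4 come near 0 in the Lgals3-Ftl1 and Rgs10-Ltc4s clusters, Sall1 is highest in Tmem119-high cells, and Maf is highest in border macrophage-like cells.

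The second comparison set the clusters against Tmem119-high cells of the same library. These are descriptions, since genes that move with the factors were used to form the clusters. In the OIR library 4 of 9 factors were lower in the Hmox1-led cluster and none was higher, beside 14.8% lower and 6.94% higher of 7821 genes, and the median was -0.58 against -0.16 for all genes. Klf2 had 638 CPM in the Hmox1-led cluster and 1397 CPM in Tmem119-high cells (-1.13, -1.23 to -1.03), and Klf4 had 165 and 355 CPM (-1.11, -1.32 to -0.90). Sall1 had 107 and 211 CPM (-0.98, -1.24 to -0.71), and Mef2a 256 and 475 CPM (-0.89, -1.07 to -0.71). Maf (157 and 195 CPM), Irf8 (323 and 449 CPM), Mef2c (462 and 680 CPM), Runx1 (205 and 307 CPM) and Spi1 (344 and 418 CPM) were all lower by less than 1.5-fold. In the same pair of groups Spp1, the gene of osteopontin, had 1760 and 166 CPM, and the 12 microglia markers summed to 12166 and 20391 CPM. Border macrophage markers summed to 424 CPM in the Hmox1-led cluster, with all 10 detected among 4278690 UMIs. In Tmem119-high OIR cells they summed to 166 CPM, with 7 of 10 at 0 among only 748853 UMIs. Tmem119-high control cells, with 6018684 UMIs, had 4 of 10 at 0, so the number detected also follows the depth of the group. Border macrophage-like cells had 15863 CPM. The part of such RNA in these levels was not tested.

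The clusters of low depth showed a wider difference. In the Lgals3-Ftl1 cluster 8 of 9 factors were lower than in Tmem119-high OIR cells and none was higher (35.2% lower and 11.8% higher of 7438 genes; median -2.42 against -0.55). In the Rgs10-Ltc4s cluster 8 of 9 factors were likewise lower than in Tmem119-high control cells (32.9% lower and 8.52% higher of 7136 genes; median -2.08 against -0.65). Spi1 was the exception in both. It had 346 CPM in the Lgals3-Ftl1 cluster against 418 CPM in Tmem119-high OIR cells (-0.27, -0.53 to -0.02), and 403 CPM in the Rgs10-Ltc4s cluster against 430 CPM in Tmem119-high control cells (-0.09, -0.37 to 0.17).

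Klf4 left 2 UMIs in the Lgals3-Ftl1 cluster of OIR, a log2 ratio of -6.76 (-9.81 to -4.89), and 1 UMI in the Rgs10-Ltc4s cluster of control, a ratio of -6.83 (-12.13 to -4.35). It left 0 UMIs in the 77 OIR cells of the Rgs10-Ltc4s cluster, which allows a level of up to 20.5 CPM. Klf2 had 14.7 CPM in the Lgals3-Ftl1 cluster against 1397 CPM in Tmem119-high OIR cells (-6.57, -7.70 to -5.64), and 45.5 CPM in the Rgs10-Ltc4s cluster against 2617 CPM in Tmem119-high control cells (-5.85, -6.72 to -5.10). Runx1 came next, at 27.8 against 307 CPM (-3.46) and 16.2 against 312 CPM (-4.26). Mef2a stood at 52.4 against 475 CPM (-3.18) and 117 against 468 CPM (-2.00). The other 4 called factors had ratios between -2.42 and -1.72 across both clusters.

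Several measures moved with those levels. The 15 immediate early genes summed to 868 CPM in the Lgals3-Ftl1 cluster and 981 CPM in the Rgs10-Ltc4s cluster of control, against 25253 CPM in OIR and 31828 CPM in control Tmem119-high cells, and in the control pair all 15 were called lower. Ribosomal protein genes took 23.8% of UMIs in the Lgals3-Ftl1 cluster and 30.2% in the Rgs10-Ltc4s cluster of control, against 14.5% and 14.4% in Tmem119-high cells. Malat1, a nuclear RNA, stood at 7377 and 4783 CPM against 21116 and 20125 CPM, and rod markers took 0.535% and 0.715% of UMIs against 0.329% and 0.196%. The microglia markers summed to 7018 and 13400 CPM against 20391 and 24787 CPM. Set against other myeloid cells, rod genes such as Cnga1 stood among the 10 leading genes of both clusters by fold, and none of the 12 microglia markers did. The Lgals3-Ftl1 list by fold was headed by Fabp5 and also held the cycling genes Ube2c and Birc5. Ltc4s, which gives the other cluster its name by a different ranking, is itself among those 12 markers. With both clusters left out, a choice made after seeing the data, 6 of 9 factors were 1.5-fold lower in OIR over control (326 OIR and 663 control cells). The share of all genes called is not given for these cells, so that count has no background beside it. The part of depth, RNA quality and handling in the factor levels was not tested.

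**Figure D3:**
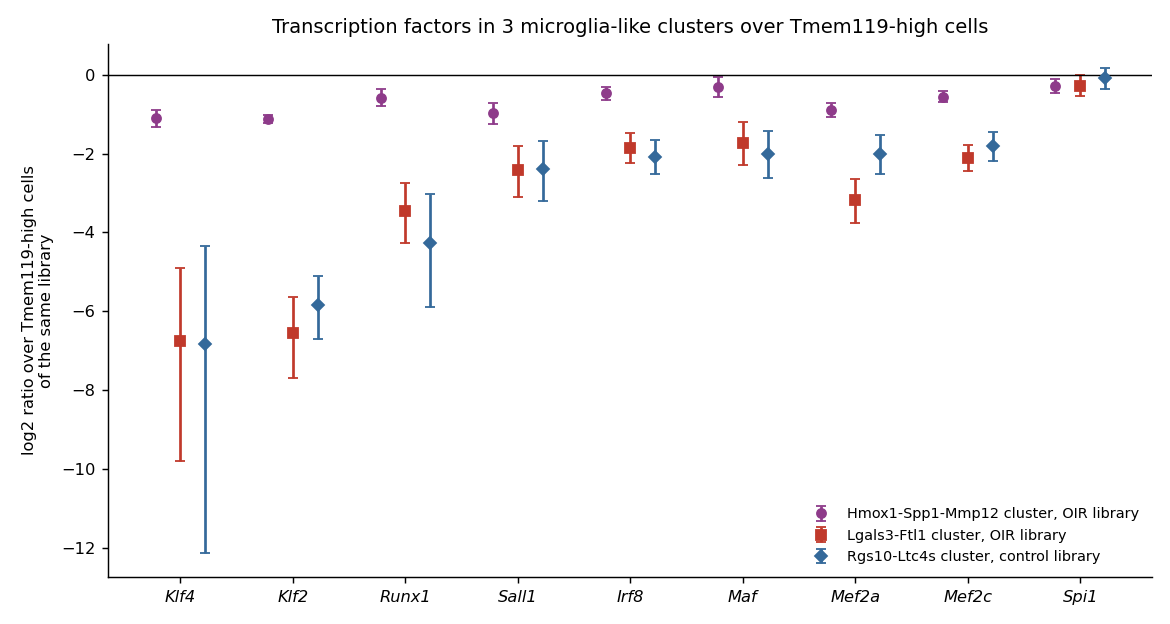
The vertical axis is the log2 ratio of each factor in 3 microglia-like clusters over Tmem119-high cells of the same library, with 95% counting intervals. Klf4 and Klf2 lie lowest in the Lgals3-Ftl1 and Rgs10-Ltc4s clusters, at -6.83 to -5.85, Spi1 lies near 0 in all 3, and the Hmox1-led cluster stays between -1.13 and -0.28.

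The third comparison set other macrophages against microglia within the OIR library. In border macrophage-like cells, resident macrophages of vessels and membranes, 3 of 9 factors were lower and 2 higher than in microglia-like cells, beside 10.5% lower and 15.3% higher of 7776 genes. Sall1 had 3 UMIs in 49 border macrophage-like cells, or 3.87 CPM, against 112 CPM in microglia-like cells, a log2 ratio of -4.86 (-7.14 to -3.30). Maf went the other way, with 829 CPM in border macrophage-like and 151 CPM in microglia-like cells, a ratio of 2.46 (2.31 to 2.61). Klf4 was also higher (267 and 168 CPM, 0.67), and Mef2a (120 and 259 CPM, -1.11) and Irf8 (196 and 314 CPM, -0.68) were lower. Spi1, at 337 and 354 CPM, differed by less than counting error (-0.26 to 0.12). Klf2 (460 and 655 CPM), Mef2c (341 and 451 CPM) and Runx1 (263 and 196 CPM) were within 1.5-fold. For Klf2 and Mef2c this rests on the mix of microglia-like cells. Tmem119-high OIR cells had 1397 CPM of Klf2 (1313 to 1484), above the border macrophage-like interval of 413 to 510 CPM. They had 680 CPM of Mef2c (622 to 741), above the border macrophage-like interval of 301 to 385 CPM. The direction for Klf4 rests on the mix of microglia-like cells, since Tmem119-high OIR cells had 355 CPM (314 to 401), above the 267 CPM (232 to 306) of border macrophage-like cells. Runx1 had 307 CPM in Tmem119-high OIR cells (269 to 349.5), which the border macrophage-like interval of 229 to 302 CPM overlaps. In the same Tmem119-high cells Maf, at 195 CPM, kept its direction, as did Sall1, Mef2a and Irf8 at 211, 475 and 449 CPM. The microglia marker Tmem119 stood at 14.2 CPM in the border macrophage-like and 174 CPM in the microglia-like cells. The 1 border macrophage-like cell of the control library held 6 Maf and 0 Sall1 UMIs.

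In monocyte-like cells, blood-derived precursors of macrophages, 2 of 9 factors were lower and 1 higher than in microglia-like OIR cells, beside 9.48% lower and 12.7% higher of 7729 genes. Sall1 had 4 UMIs in 31 monocyte-like cells, or 11.9 CPM, a log2 ratio of -3.23 (-5.11 to -1.87). Irf8 had 164 CPM in monocyte-like and 314 CPM in microglia-like cells (-0.94, -1.35 to -0.55), and Klf4 had 343 and 168 CPM (1.03, 0.74 to 1.31). Spi1 was at 510 and 354 CPM (0.53, 0.29 to 0.75), within 1.5-fold. Maf was at 104 and 151 CPM, and Mef2a at 260 and 259 CPM. Klf2 (558 and 655 CPM), Mef2c (310 and 451 CPM) and Runx1 (161 and 196 CPM) were also within 1.5-fold. The values for Klf4, Mef2a, Klf2, Mef2c, Runx1 and Maf also rest on the mix of microglia-like cells. Tmem119-high OIR cells had 355 CPM of Klf4 (314 to 401), which the monocyte-like interval of 283 to 412 CPM overlaps, and 475 CPM of Mef2a (427 to 527), above the monocyte-like interval of 208 to 320 CPM. Klf2 had 1397 CPM there (1313 to 1484), above the monocyte-like interval of 481 to 644 CPM. The same 2 intervals were 622 to 741 and 253 to 376 CPM for Mef2c. They were 269 to 349.5 and 121 to 210 CPM for Runx1, and 165 to 229 and 72.7 to 145 CPM for Maf. The 12 microglia markers summed to 5205 CPM in the 31 OIR monocyte-like cells and 12388 CPM in the 10 control ones, which had 103 CPM of Sall1 and 1790.5 CPM of Klf2. The part of microglial RNA in these control values was not tested.

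**Figure D4:**
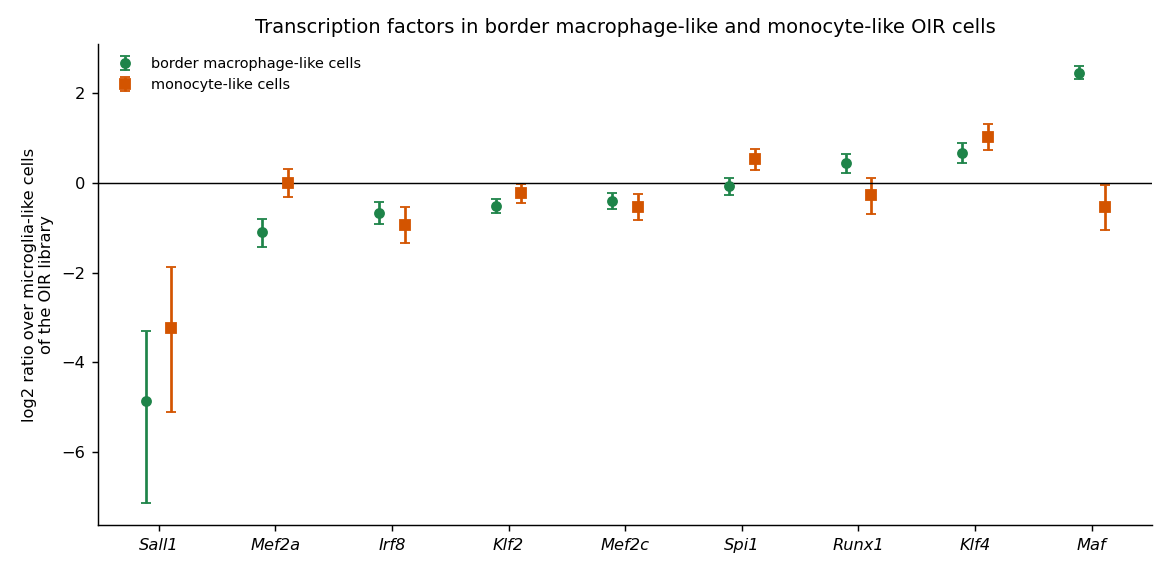
The vertical axis is the log2 ratio of each factor in border macrophage-like (green circles) and monocyte-like (orange squares) cells over microglia-like cells, all of the OIR library, with 95% counting intervals. Sall1 lies lowest in both, at -4.86 and -3.23, and Maf lies at 2.46 in border macrophage-like cells and at -0.53 in monocyte-like cells.

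The levels of each factor were ordered over the 11 myeloid groups of at least 20 cells, 2 of which were left unnamed. An unnamed cluster led by Cd74 and Cxcl10 (40 OIR, 34 control cells) had antigen-presentation and interferon response genes among its leading genes. The border macrophage marker Ms4a7 was also among them. In this cluster microglia markers stood further above non-myeloid cells than border macrophage markers did. Set against the other myeloid cells the order was the reverse, with border macrophage markers above them and microglia markers below. An unnamed cycling cluster led by Top2a and Ube2c had 23 OIR cells. Neighbours in the order had overlapping intervals in all 10 steps for Spi1 and Mef2c, in 9 for Mef2a, Runx1, Maf and Klf4, in 8 for Sall1 and Irf8, and in 5 for Klf2. For Sall1, control and then OIR Tmem119-high cells stood apart at the top, and border macrophage-like cells came last. For Maf, border macrophage-like cells stood apart at the top. For Klf2 the control Cd74-Cxcl10 cluster led with 2876 CPM, followed by control and then OIR Tmem119-high cells, and each of these steps was wider than the intervals. For Runx1 and Klf4 the step that stood apart was the one down to the clusters of low depth, which for Klf4 fell between 144 CPM in the OIR cycling cluster and 3.28 CPM in the Lgals3-Ftl1 cluster. Within the Cd74-Cxcl10 cluster Klf2 stood at 604 CPM in OIR and 2876 CPM in control, Irf8 at 254 and 653 CPM, Sall1 at 40.9 and 124 CPM, Maf at 286 and 367 CPM, and Spi1 at 427 and 359 CPM. This cluster was not counted as microglia-like, and its median depth was 3166.5 UMIs in OIR and 6267 in control. The order for Spi1 ran only between 510 CPM in monocyte-like and 337 CPM in border macrophage-like OIR cells.

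Depth differed between libraries, so cells were also thinned to 1500 UMIs each, which left out 82 OIR and 58 control microglia-like cells. Of the thinned cells 35.0% in OIR (exact interval 30.9 to 39.2) and 73.8% in control (70.5 to 76.8) held a Klf2 UMI; unthinned, the shares were 46.3% and 78.3%. For Sall1 the thinned shares were 12.9% (10.1 to 16.0) and 29.1% (25.9 to 32.5), and the unthinned ones 41.6% and 68.7%. Irf8 was found in 32.1% of thinned OIR and 56.0% of control cells, Mef2c in 39.1% and 57.2%, Mef2a in 28.0% and 45.4%, Runx1 in 19.1% and 30.9%, Maf in 16.6% and 31.3%, and Klf4 in 13.4% and 24.8%. For Spi1 the thinned shares were 37.8% (33.7 to 42.1) and 46.7% (43.2 to 50.3). In thinned rod cells, which should lack these genes, the shares were 1.15% and 0.928% for Klf2, 0.0637% and 0.172% for Sall1, and 0.127% and 0.172% for Spi1. For Irf8, Runx1, Maf and Klf4 they lay between 0.103% and 0.700%, but rods held a Mef2a UMI in 16.7% and 15.9% of cells and a Mef2c UMI in 10.4% and 14.1%. Within Tmem119-high cells 70.1% in OIR (60.0 to 79.0) and 85.4% in control (82.4 to 88.0) held a Klf2 UMI, with medians of 1 and 3 UMIs a thinned cell. In the same cells Klf4 was found in 30.9% (21.9 to 41.1) and 28.9% (25.4 to 32.5). In the Lgals3-Ftl1 cluster of OIR 2.45% of 163 thinned cells held a Klf2 UMI, while 35.0% held a Spi1 UMI at the same depth. In border macrophage-like cells of OIR Maf was found in 75.0% (60.4 to 86.4) and Sall1 in 0 of 48 thinned cells, with an exact upper limit of 7.40%; unthinned, 2 of 49 cells held a Sall1 UMI.

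The genes most like each factor were read from log2(CPM + 10) across 14 groups of myeloid cluster and library, among 5260 genes. These groups share 2 libraries and differ in depth, so the correlations describe the groups only. The genes nearest to Klf2 were Junb (Pearson r = 0.99), Ier5 and Ppp1r15a, those nearest to Klf4 were Zfp36 (0.99), Nfkbiz and Rsbn1l, and those nearest to Runx1 were Egr1 (0.99), Fosb and Irf2bp2. For Sall1 they were Blnk (0.97), Plxdc2 and Golm1, and for Irf8 they included Rhob (0.98) and Usp2. For Mef2a they were Camk1d (0.98), Elmo1 and Prex1, and for Mef2c Zfhx3 (0.99), Inpp5d and Ttc28. Maf was closest to P2rx7 (0.93), Cd164 and Lrp6. Spi1 had the loosest match, with Nupr1 (0.81), Slc38a1 and Stk10. Between the factors themselves r ran from -0.07 for Spi1 with Maf to 0.96 for Runx1 with Klf4.

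**Figure D5:**
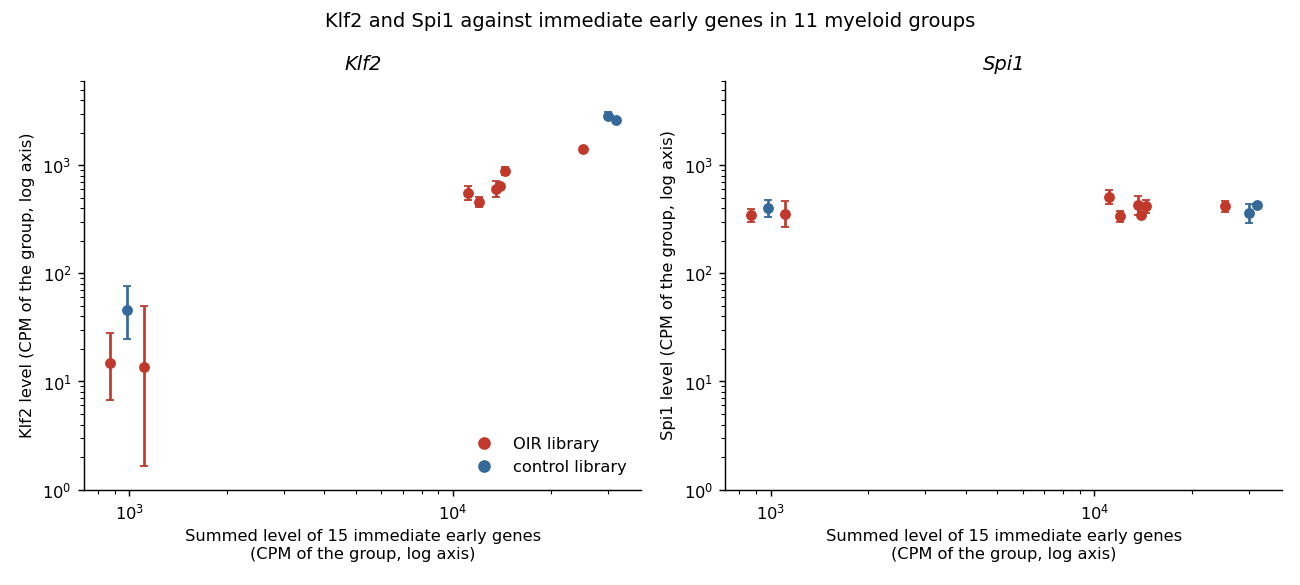
Each point is 1 of the 11 myeloid groups of at least 20 cells; the horizontal axis is the summed level of 15 immediate early genes and the vertical axis the level of Klf2 (left) or Spi1 (right), all in CPM on log axes, with 95% Poisson intervals. Klf2 spans 13.7 to 2876 CPM along the axis, and Spi1 stays between 337 and 510 CPM.

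Related genes were counted in the same way in microglia-like cells of OIR over control. Over all 7754 genes that passed, 17.6% were lower and 10.4% higher, with a median of -0.13. Of 36 family relatives 24 passed the minimum level, and 14 were lower and 3 higher (median -0.69). Klf10, a Krüppel-like gene induced by TGF-beta, was higher at 31.3 CPM in OIR and 8.14 CPM in control (1.94), as was the small Maf gene Maff (20.2 and 7.37 CPM, 1.46). Sall3, the relative of Sall1, was lower (45.8 and 114 CPM, -1.31). Of 20 other macrophage transcription factors 16 passed, with 6 lower and 1 higher (median -0.30). The higher one was Id2, which encodes an inhibitor of basic helix-loop-helix factors (335 and 95.3 CPM, 1.81), and the lower ones included Cebpa (150 and 375 CPM, -1.33) and Tal1 (12.4 and 25.04 CPM, -1.01). Klf10, Sall3, Id2 and Cebpa were called the same way within Tmem119-high cells, at 1.68, -0.73, 1.45 and -0.72.

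Beside the lists that follow, 17.6% of 7754 genes were lower and 10.4% higher over all microglia-like cells. Within Tmem119-high cells 4.12% of 7866 genes were lower and 7.28% higher. The 10 genes known as PU.1 targets did not move one way. They counted 3 lower and 2 higher (median -0.33), with Csf1r, the growth factor receptor of microglia, at 1211 CPM in OIR and 2284 CPM in control (-0.92), and the scavenger receptor gene Msr1 at 25.6 and 0.922 CPM (4.79). The oxidase gene Cybb was at 36.1 and 4.30 CPM (3.07). Within Tmem119-high cells 8 of the 10 passed the minimum level and 0 were called. Of 9 genes of TGF-beta signalling, which is needed for Sall1 in mouse microglia, 7 were lower and 0 higher (median -0.62), led by Tgfbr1 at 240 and 673 CPM (-1.49). Skil had a ratio of -1.09, and Tgfbr2 stood at 143 and 275 CPM (-0.94). The list mixes receptors, Smads and other regulators of the pathway, so the count gives no direction of signalling. Of the 15 immediate early genes 14 were lower and 0 higher (median -1.17), led by Btg2 at 709 and 2447 CPM (-1.79), Rhob at 731 and 2107 CPM (-1.53) and Jun at 1665 and 4474 CPM (-1.43). Within Tmem119-high cells Tgfbr1 (-0.70) was the 1 TGF-beta gene called lower, and Btg2 (-0.87) and Rhob (-0.70) were the 2 immediate early genes. In the activated list 9 of 11 genes were higher, among them Mmp12 (350 and 0.768 CPM), Spp1 (1443 and 8.30 CPM) and Lgals3 (1212 and 22.3 CPM), and in the cycling list 4 of the 4 that passed, among them Ube2c (27.0 and 0.615 CPM), Birc5 (24.5 and 0.922 CPM) and Cdk1 (27.0 and 10.4 CPM).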

How the data were processed

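Retinal cells of 1 OIR and 1 control library were sequenced after CD11b bead selection. The authors deposited raw UMI counts per gene and barcode, made with Cell Ranger 3.0.2 and mm10 per the submitters' processing notes; no other upstream step is given in the sources used here. The OIR library held 7283 barcodes and 49773742 UMIs, and the control library 10826 barcodes and 50081145 UMIs. Cells with at least 500 genes and at most 10% mitochondrial UMIs were kept (6516 OIR, 9454 control). Scrublet's own threshold marked 0 and 1 cells, so the highest-scoring 424 OIR (5.82%) and 938 control cells (8.66%) were removed at a set rate of 0.8% per 1000 cells before the study's cells were clustered.

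Cells were clustered with scanpy 1.11.5 (python 3.11.15, numpy 2.4.6, igraph 0.11.9) on 2000 variable genes, 30 components and 20 neighbours, at resolution 1 for all cells and 1.2 for myeloid cells. The resolution of 1.2 was chosen after seeing the clusters, as the lowest tried that separated neutrophil, monocyte, border macrophage and cycling clusters, without use of the members' values. Members and related transcription factors were left out of the variable genes. Clusters were named from marker lists. The Hmox1-led, Rgs10-Ltc4s and Lgals3-Ftl1 clusters took the microglia name. They are told apart by 3 leading genes for the Hmox1-led cluster and 2 for the others. Clusters that failed the naming rule were left unnamed and also carry their 2 leading genes. Tmem119-high denotes the 3 clusters whose microglia markers exceeded those of the other myeloid cells. The members and all gene lists were chosen with earlier results of these data known.

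Counts were summed per cell group and library and given as CPM with exact Poisson intervals. Ratios carry exact conditional binomial intervals and shares exact Clopper-Pearson intervals (scipy 1.17.1), all at 95%. A gene was called apart at 1.5-fold or more with an interval excluding 0, among genes with a mean of at least 10 CPM over the pair of groups. With 1 library a group no test was made, and cells were not treated as replicates of a condition. A count of 0 allows up to 3 counts of the group's total. Intervals were checked on simulated counts. From each other list the text names the 3 called genes with the largest ratio, and for each member the 3 genes with the highest correlation across groups of at least 20 cells, with a mean of at least 20 CPM. Alternatives changed the scaling, cell filter, doublets, clustering, naming, cell weights, state shares, fold, minimum level and thinning depth. The 30934 gene IDs found in the GENCODE annotation gave positions. A gene that the rule would name is not reported here.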

Additional observations from a re-analysis of the deposited data

How the results depend on the processing

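The count of 7 factors lower in OIR microglia-like cells fell to 2 with control shares of the states in both libraries and to 4 with 2-fold in place of 1.5-fold. At 2-fold the related transcription factors apart came to 9 in place of 24. The factors lower came to 0 in place of 2 within Tmem119-high cells at 2-fold, and to 2 in place of 4 in the Hmox1-led cluster over them, which the stricter cell filter took to 6. The other 53 alternative counts lay within 1.5 times the reported ones. Apart from median-of-ratios scaling, no share of all genes is given beside these alternative counts. The 7 came to 6 under median-of-ratios scaling, with called doublets kept, with cells named by marker UMIs and without both clusters of low depth, where Mef2c was within 1.5-fold. They came to 8, with Runx1 called, at myeloid resolutions of 0.5, 1 and 1.5, with cells weighted equally and without the Hmox1-led cluster. At resolutions 0.5 and 1 the Hmox1-led cells lost the microglia name (413 and 387 OIR cells were left). The cause of these moves was not tested.

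Over 14 alternatives the log2 ratio of OIR over control ran from -2.13 to -0.91 for Klf2, from -1.29 to -0.35 for Sall1, from -1.21 to -0.59 for Maf, from -1.14 to -0.48 for Irf8, from -1.35 to -0.06 for Klf4 and from -0.30 to -0.07 for Spi1. Mef2a, Mef2c and Runx1 reached -0.0013, -0.09 and 0.0052 at control shares of the states. For each factor the ratio nearest to 0 came from that setting, which gives Tmem119-high cells 79.0% of the weight. Resolution 1, the clusters left out or added and the 5000 to 15000 UMI range were chosen after seeing the data. No paired analysis was possible because each group is 1 pooled library, and for the same reason no replicate could be left out. Depth limits the clusters of low depth most.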

Other observations

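Outside the myeloid cells, Klf2 was also found in endothelial cells, where it is known as a gene induced by blood flow. It stood at 241 CPM (196 to 294) in 15 OIR and 1249 CPM (1168 to 1334) in 49 control endothelial cells, and Klf4 at 99.5 and 422 CPM. In Müller glia, the supporting glia of the retina, Klf4 had 196 CPM (185 to 207) in OIR and 164 CPM (150 to 178) in control. In cones it had 35.7 CPM (32.6 to 39.1) in 764 OIR cells and 7.59 CPM (5.67 to 9.95) in 327 control cells.

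Mef2a and Mef2c were not restricted to myeloid cells. Mef2a had 122 CPM in OIR and 116 CPM in control rods, 94.4 and 89.9 CPM in cones, and 101 and 103 CPM in bipolar cells. Mef2c had 69.6 CPM in OIR and 108 CPM in control rods. After thinning, a Mef2a UMI was held by 16.7% of OIR and 15.9% of control rods and a Mef2c UMI by 10.4% and 14.1%, so rods give no background share for these genes. Maf stood at 58.2 CPM (35.6 to 89.9) in 29 OIR and 440 CPM (366 to 523) in 75 control amacrine cells, with median depths of 8241 and 1245 UMIs, and 6.90% and 9.33% of these cells held a Maf UMI. In Müller glia Maf had 28.3 CPM in OIR and 63.7 CPM in control. Each value comes from 1 library, and intervals cover counting error only.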
